A study of Mus musculus with 18 samples.

Results

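1,5-Naphthalenediamine, an aromatic diamine, was fed to female B6C3F1 mice, and liver RNA of 3 treated animals was compared with that of 3 feed control animals. These 6 arrays were chosen by their labels from the 18 arrays of the series, and 12169 genes were tested, 1 probe set per gene. The compound was mixed into the feed at 2000 ppm and given 7 days per week for 13 weeks, and the controls are labelled as fed rodent chow. All animals of the series were female mice of this hybrid strain, 5 weeks old at the start and 18 weeks old when the liver was taken, and each array held RNA of a single animal. The treated animals are numbered 2, 4 and 5 in the labels and the feed controls 27, 28 and 29. The other groups, also of 3 animals, received N-(1-naphthyl)ethylenediamine dihydrochloride (2000 ppm in feed), pentachloronitrobenzene (8187 ppm in feed), 2,3-benzofuran (240 mg/kg, gavaged 5 days per week with corn oil as vehicle) or the corn oil vehicle alone. The labels class 1,5-naphthalenediamine and 2,3-benzofuran as positive liver carcinogens and the other 2 chemicals as negative, and the series title gives its aim as expression markers that predict liver tumours in long rodent studies.

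Aromatic amines are metabolised in hepatocytes by cytochromes P450 and by conjugating enzymes, and oxidised metabolites can bind protein and DNA. The aryl hydrocarbon receptor switches on Cyp1a1 and Cyp1a2 when it binds planar aromatic ligands. The factor NRF2, released from its inhibitor KEAP1 by electrophiles and oxidants, switches on genes for glutathione conjugation, quinone reduction and export of conjugates, and p53 switches on its targets after DNA damage.

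Signals are log2 values as the authors deposited them. The upper part of the signal distribution was higher on treated arrays (75th percentile 6.36 to 6.41) than on feed control arrays (6.10 to 6.24), whereas the array medians were lower (4.26 to 4.29 against 4.32 to 4.35). Over all genes the log2 change had a median of 0.175, and changes below are given relative to it, so that the median over all genes is 0. The median change depended on signal level. It was -0.11 for genes up to 5, 0.04 from 5 to 6, 0.27 from 6 to 7 and 0.11 above 12. Relative to the single median of 0.175, changes of dim genes are therefore shifted downwards. On the deposited scale, 3836 genes (31.5%) were higher and 1023 (8.41%) lower at an adjusted p under 0.05, a share of 78.95% higher among the calls, which became 50.14% after quantile normalization and 27.06% when each array was centred on its own median over tested genes. "Rose" and "fell" are therefore used only for genes called in the same direction under all 3 scalings, which were 1059 higher (8.7% of genes tested) and 877 lower (7.21%). Both shares are the background for each count of list members below. Treated animal 4 had the highest 18S ribosomal RNA signal of these 6 arrays (9.97 against 5.94 to 6.67), and control animal 29 had the lowest 75th percentile (6.10). Without animal 4 the counts were 681 higher (5.6%) and 598 lower (4.91%), and without animal 29 they were 773 (6.35%) and 708 (5.82%). With the corn oil controls in place of the feed controls they were 901 (7.4%) and 589 (4.84%), and 2496 (20.5%) and 680 (5.59%) on the deposited scale. Errors of changes are standard errors of the difference between group means, from limma. They rest on a variance between animals that is pooled over the groups of all 18 arrays. They therefore do not give the spread within the treated or the control group, which is seen from the signals of single animals. Adjusted p are also from limma. Unless stated otherwise they test the change on the deposited scale, before the median of all genes is taken off.

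Listed hepatocyte markers had summed signals of 16.61 to 16.65 in treated and 16.55 to 16.63 in control livers, with 10 of 12 markers tested, so the arrays carry the RNA of the labelled tissue. Alb, which encodes serum albumin, had signals of 14.48, 14.49 and 14.49 in animals 2, 4 and 5 and 14.44, 14.40 and 14.37 in controls 27, 28 and 29. On the deposited scale its change of 0.08 was not called (limma, adjusted p 0.129). Relative to the median of all genes its change was -0.09, and with centred arrays the adjusted p was 0.00867 (limma). Among the other tested markers Apob fell (-0.56 ± 0.125), a call lost without animal 4 and against the corn oil controls. Fah and Tat were called higher on the deposited scale alone. In whole liver, fewer cells of a type and less RNA per cell cannot be told apart.

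The genes that rose most were led by a transporter of conjugates, conjugating enzymes, fatty acid uptake genes and Cyp1a1. Of the 12169 genes, 92 (0.756%) rose and 81 (0.666%) fell by more than 1 on the log2 scale (94, 0.772%, and 82, 0.674%, on the deposited scale alone). In 5662 genes (46.5%) the ranges of both groups lay apart, which is the background for each statement on overlap below. Abcc4 encodes the export pump MRP4, which moves organic anions and conjugates from hepatocytes into blood. Its log2 signals were 7.29, 8.10 and 8.29 in treated animals 2, 4 and 5 and 4.03, 3.91 and 3.77 in controls 27, 28 and 29. All 3 treated livers lay more than 3 units above every control liver. The controls were under the lowest array median of 4.25, and a group mean under this floor was not taken as measured. The change is then a bound, with each array of the dim group set to its own median, or to its signal where that is higher. The rise was at least 3.39, or 10.5-fold (limma, adjusted p 6.13e-08). 9130409I23Rik, a predicted gene, had signals of 8.72, 8.93 and 8.93 against 5.58, 5.32 and 4.91 and rose by 3.41 ± 0.254 (adjusted p 5.42e-08). The small nucleolar RNA host gene Snhg11 rose by at least 2.66, from values under the floor in all controls to 6.29, 7.82 and 7.40. Its other probe set changed by -0.27, so the rise holds for 1 of its 2 probe sets. Lrrc24, which encodes a leucine-rich repeat protein, had signals of 6.40, 7.40 and 6.56 against 4.69, 4.22 and 4.34 and rose by 2.19 ± 0.344.

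**Figure D1:**
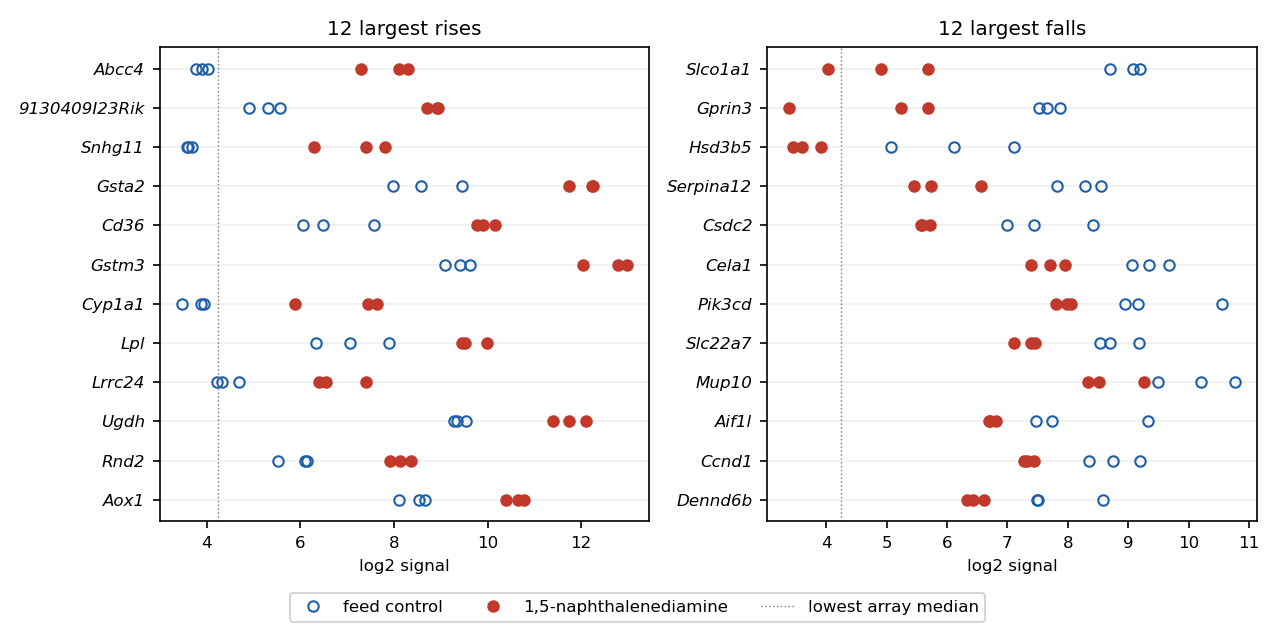
Log2 signal (x axis) of the 12 genes that rose most and the 12 that fell most, with 1 point per animal for treated and feed control livers and the lowest array median as a dotted line. Points of the groups do not overlap in any of these genes, which was part of the rule that chose them. Control points of Abcc4, Snhg11 and Cyp1a1 lie left of the dotted line.

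Cyp1a1, the xenobiotic-oxidising enzyme most used as a mark of aryl hydrocarbon receptor activity, was measurable in the 1,5-naphthalenediamine livers and under the floor in all controls. Of 7 listed receptor targets, 3 passed the signal filter and 2 rose. Cyp1a1 was under the floor in all other groups, so it passed the filter only through the treated livers. Its place in this count therefore adds nothing to its rise. Cyp1a1 had signals of 5.88, 7.46 and 7.63 in treated animals 2, 4 and 5 against 3.47, 3.87 and 3.95, with animal 2 well below the others and still above all controls. Its rise was at least 2.48, or 5.58-fold (limma, adjusted p 8.22e-07). Cyp1a2, the aromatic amine N-oxidising P450 of the liver, had signals of 13.24, 13.81 and 13.57 against 11.93, 11.80 and 12.20 and rose by 1.39 ± 0.126 (adjusted p 2.23e-07), with no overlap. Tiparp, another target, changed by 0.17 and was not called. Its 3 probe sets disagreed, with changes from -0.49 to 0.49. The 250 bases before the Cyp1a1 start in RefSeq (GRCm38.p6, chr9:57697363-57697612, plus strand) are shown because the core of the receptor's response element, GCGTG, stands in them, in capitals, 54 bases before the start.
Cyp1a1: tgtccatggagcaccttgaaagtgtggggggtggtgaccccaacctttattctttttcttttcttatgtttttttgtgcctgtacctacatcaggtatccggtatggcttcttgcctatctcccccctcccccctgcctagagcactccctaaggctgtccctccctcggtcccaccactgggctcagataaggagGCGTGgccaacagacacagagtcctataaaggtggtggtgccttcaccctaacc
Searched on both strands, GCGTG was found in 28.2% of all 32851 promoter windows of this length and in 47.9% of the 9805 tested genes that have one. A gene counts if any of its windows holds a match, so shares of genes and of windows are not alike. Among genes that rose by more than 1 it was found in 41 of the 78 with a window (52.6%), and among genes that fell by more than 1 in 23 of 60 (38.3%). The letters describe the window and are not evidence of binding.

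Of 23 listed NRF2 targets of thiol and quinone defence, 19 were tested, and 14 rose and none fell, against 8.7% of all genes that rose. Their median change was 0.825, against 0 for all genes. The other 5 tested members were Gsr, Sqstm1, Txn1, Hmox1 and Osgin1, of which the first 3 were called only on the deposited scale. Of 24 listed glutathione S-transferases, 21 were tested and 14 rose, with a median change of 0.845. Without animal 4 the counts were 15 and 12, without control 29 they were 11 and 12, and against the corn oil controls they were 14 and 9. A gene dim in all other groups passes the signal filter only if it is bright in the treated livers, so counts cover the members that passed and not all members.

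Ugdh makes the UDP-glucuronic acid used for glucuronidation. Its signals were 11.40, 11.75 and 12.10 in treated animals 2, 4 and 5 and 9.54, 9.35 and 9.28 in controls 27, 28 and 29, well apart and with little spread in the controls. It rose by 2.19 ± 0.143, or 4.56-fold (limma, adjusted p 8.95e-09). Aox1, aldehyde oxidase, had signals of 10.40, 10.64 and 10.78 against 8.54, 8.67 and 8.11 and rose by 1.99 ± 0.128 (adjusted p 8.58e-09). Nqo1, the quinone reductase, had 7.55, 8.47 and 8.13 against 6.43, 5.50 and 6.00, and the treated arrays stood above all controls, with a rise of 1.90 ± 0.228 (adjusted p 9.11e-06). Nqo1, Cbr3, Srxn1, Cbr1, Gclc, Gclm, Hmox1 and Osgin1 were chosen for description after their values were seen. Ephx1, microsomal epoxide hydrolase, had 12.25, 12.47 and 12.75 against 10.82, 10.81 and 10.40 and rose by 1.64 ± 0.146.

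Rises were smaller for the genes that make and recycle thiols. Txnrd1, thioredoxin reductase, rose by 0.93 ± 0.108, although its second probe set changed by only 0.20. Srxn1, which repairs oxidised peroxiredoxins, rose by 1.20 ± 0.195 on 3 of its 4 probe sets. Gclc, the catalytic subunit of glutathione synthesis, had signals of 12.40, 11.72 and 12.62 against 11.44, 11.50 and 11.02, with animal 4 close to the highest control, and rose by 0.75 ± 0.196. Its modifier Gclm rose by 0.57 ± 0.152. The carbonyl reductases Cbr1 and Cbr3 rose by 1.03 ± 0.127 and by at least 0.75, and Fth1, ferritin heavy chain, rose by 0.29 ± 0.0609. Hmox1, heme oxygenase and a widely used NRF2 target, had overlapping signals of 6.46, 6.23 and 6.04 against 6.14, 6.21 and 5.82 and a change of 0.01 (adjusted p 0.351).

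Among transferases that join glutathione to electrophiles, the mu and alpha classes rose most. Gsta2 had signals of 11.73, 12.25 and 12.24 against 9.46, 7.99 and 8.57, a rise of 3.23 ± 0.356 (limma, adjusted p 4.94e-06), with the controls spread over more than 1 unit. Gstm3 had 12.04, 12.78 and 12.98 against 9.40, 9.08 and 9.61, a rise of 3.06 ± 0.255. Gstm2 had 10.25, 10.25 and 10.50 against 8.37, 8.34 and 8.25, a rise of 1.84 ± 0.105 (adjusted p 1.83e-09), and all values of a group lay within a narrow range. The most abundant members rose as well, Gstm1 by 1.20 ± 0.0971 on 4 of 4 probe sets and Gstp1 by 1.12 ± 0.0852. Mgst1, Mgst2 and Gstz1 were not called. Genes of the mu and alpha classes are nearly identical copies, and the Gstm3 probe set is one the array maker marks as shared with related transcripts, so reports of single members are uncertain.

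Promoter windows of 3 genes among the largest rises are shown because each holds the core of the antioxidant response element, TGACNNNGC, to which NRF2 binds. The sequences are the 250 bases before the start in RefSeq (GRCm38.p6), Ugdh at chr5:65435843-65436092 on the minus strand, Abcc4 at chr14:118706220-118706469 on the minus strand and 9130409I23Rik at chr1:181050987-181051236 on the plus strand. Abcc4 has a second window, at chr14:118676932-118677181 on the minus strand, which is not shown. It holds 1 match, 23 bases before its start. Matches on either strand are in capitals.
Ugdh: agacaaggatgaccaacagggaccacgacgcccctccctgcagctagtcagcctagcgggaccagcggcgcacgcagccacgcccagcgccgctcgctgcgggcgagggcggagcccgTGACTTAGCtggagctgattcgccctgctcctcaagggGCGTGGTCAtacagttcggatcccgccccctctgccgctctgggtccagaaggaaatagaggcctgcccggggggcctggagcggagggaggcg
Abcc4: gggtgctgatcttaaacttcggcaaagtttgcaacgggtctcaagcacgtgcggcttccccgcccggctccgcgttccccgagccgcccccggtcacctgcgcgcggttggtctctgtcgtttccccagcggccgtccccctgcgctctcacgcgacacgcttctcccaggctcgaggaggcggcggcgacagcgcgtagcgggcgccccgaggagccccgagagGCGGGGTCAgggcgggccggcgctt
9130409I23Rik: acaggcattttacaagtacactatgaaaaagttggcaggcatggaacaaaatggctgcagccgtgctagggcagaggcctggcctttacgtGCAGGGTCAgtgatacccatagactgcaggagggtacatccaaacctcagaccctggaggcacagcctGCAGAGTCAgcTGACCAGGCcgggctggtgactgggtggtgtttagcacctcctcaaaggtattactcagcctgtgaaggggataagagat
In the windows shown, the matches start 132 and 94 bases before the start of Ugdh, 25 before that of Abcc4, and 159, 91 and 80 before that of 9130409I23Rik. The second Ugdh match, read on the other strand, overlaps a GCGTG. TGACNNNGC was found in 10.2% of the 32851 windows and in 14.0% of the tested genes with a window, a gene again counting if any of its windows holds a match. It was found in 12 of 78 genes (15.4%) that rose by more than 1 and in 8 of 60 (13.3%) that fell by more than 1. Among members of the NRF2 and transferase lists it was found in 7 of 35 (20.0%).

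Enzymes and pumps around these pathways rose in part. Of 7 NADPH-supplying enzymes, 2 rose under 3 scalings, Pgd by 1.08 ± 0.119 on 4 of 4 probe sets and Tkt, transketolase, by 0.85 ± 0.106. Both belong to the pentose phosphate pathway. Of 35 tested enzymes of carbonyl, aldehyde and alcohol metabolism, 14 rose and none fell (median 0.284), led by Aox1 and by Akr1c19, an aldo-keto reductase with signals of 10.95, 11.12 and 11.40 against 9.48, 8.81 and 8.88 and a rise of 1.92 ± 0.182. Of 12 glucuronidation enzymes, 3 rose and 1 fell: Ugt2b35 rose by 1.45 ± 0.145 and Slc35d1, which carries UDP-glucuronic acid into the endoplasmic reticulum, by 0.90 ± 0.113, whereas Ugt2a3 fell by 0.50 ± 0.115. Of 12 export transporters, 4 rose. Beside Abcc4 these were Abcg2, the breast cancer resistance protein (1.11 ± 0.168), Abcc3, a basolateral pump of glucuronides (0.89 ± 0.104), and Abcb1a (1.32 ± 0.33), a P-glycoprotein whose adjusted p against corn oil controls was 0.149.

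Other drug-metabolising families were split. Of 18 sulfo-, acetyl- and methyltransferases, 2 rose and 4 fell, against 8.7% and 7.21% of all genes. The sulfotransferases Sult5a1 and Sult1c2 fell by 1.52 ± 0.322 and 1.17 ± 0.24, Sult2a8 by 0.70 ± 0.151 and Nat8 by 0.61 ± 0.115, whereas Tpmt, thiopurine methyltransferase, rose by 0.41 ± 0.109. Sult2a2, named after its values were seen like Sult2a8 and Nat8, had 10.01, 11.57 and 11.72 against 10.31, 7.28 and 7.90, so that control 27 lay inside the treated range, and rose by 2.43 ± 0.847. Of 18 P450 genes of the 2B, 2C and 3A families, 3 rose and 2 fell, the third rise and second fall being Cyp2b13 (0.84 ± 0.232) and Cyp2c68 (-0.71 ± 0.135). Cyp2b10, the mark of the receptor CAR, had signals of 9.44, 10.19 and 10.33 against 8.82, 7.25 and 8.48 and rose by 1.63 ± 0.365 on 3 of 3 probe sets, and Cyp2c55 rose by 1.66 ± 0.337. Against the corn oil controls none of the 18 rose and 4 fell. Cyp3a44 had 8.67, 8.13 and 8.17 against 10.20, 9.24 and 9.05 and fell by 1.35 ± 0.274. Many of these genes have near-identical copies.

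The uptake transporter Slco1a1 fell most of all genes. This organic anion carrier of the sinusoidal membrane had signals of 5.69, 4.04 and 4.91 in treated animals 2, 4 and 5 and 9.08, 9.19 and 8.70 in controls 27, 28 and 29, and all treated values lay more than 3 units below the lowest control. It fell by 4.29 ± 0.59, or 19.5-fold, on 2 of 2 probe sets (limma, adjusted p 0.000109). Slc22a7, the organic anion transporter OAT2, had 7.38, 7.11 and 7.45 against 8.70, 9.18 and 8.52, without overlap, and fell by 1.66 ± 0.225 (adjusted p 0.000162). These were the only 2 of 11 tested uptake transporters that fell, and Slc22a18 rose by 0.69 ± 0.139.

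Of 10 tested genes with higher expression in male than in female liver, 4 fell and 1 rose, with a median of -0.49. Against the corn oil controls 2 fell and 2 rose. The 4 were Slco1a1, Hsd3b5, the complement gene C6 and Susd4 (-0.91 ± 0.207). Hsd3b5, a hydroxysteroid dehydrogenase, had signals of 3.92, 3.61 and 3.46, all under the floor, against 6.12, 7.11 and 5.08, and fell by at least 2.01. Against the corn oil controls its change was not called (adjusted p 0.148). Mup10, a major urinary protein gene outside the list with many near-identical copies, fell by 1.63 ± 0.348. Cyp2d9 went the other way, with 10.73, 10.66 and 10.79 in treated livers against 8.70 to 9.97 in controls and a rise of 1.33 ± 0.228. Of 17 female-biased genes 4 rose and 3 fell, and only 1 rose without animal 4 and none against the corn oil controls. In the growth hormone and IGF axis, 3 of 14 genes fell, the factor Cux2 (-0.59 ± 0.133), the receptor Ghr (-0.42 ± 0.0667) on 3 of 3 probe sets and Igfals, the acid-labile subunit that binds IGF in plasma (-0.66 ± 0.153), whose groups overlapped.

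The largest falls also held genes for which 1 control or 1 probe set set the size. Gprin3 had 5.24, 3.39 and 5.68 against 7.52, 7.87 and 7.65, with animal 4 lowest, and fell by 3.08 ± 0.532. Serpina12, an adipokine of the serpin family, had 6.57, 5.73 and 5.46 against 8.28, 8.54 and 7.82 and fell by 2.47 ± 0.377. Csdc2, a cold-shock domain RNA-binding protein, had 5.58, 5.57 and 5.71 against 7.44, 6.99 and 8.42, so that control 29 stood highest, and fell by 2.18 ± 0.245. Control 29 was also highest in Pik3cd (10.55), Aif1l (9.33) and Dennd6b (8.58), which fell by 1.78, 1.61 and 1.58. Second probe sets of Csdc2, Pik3cd, Aif1l and Dennd6b changed by only -0.29, -0.46, -0.10 and 0.05. Cela1, an elastase first known from pancreas, had 7.71, 7.95 and 7.38 against 9.68, 9.34 and 9.06 and fell by 1.85 ± 0.202. It was the only 1 of 7 listed exocrine pancreas markers that passed the signal filter, and 4 others were below it.

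Some p53 targets rose, by 0.45 to 1.12. Of 22 tested, 6 rose and none fell, against 8.7% of all genes that rose, with a median of 0.181. The count was 6 without animal 4, 5 without control 29 and 5 against the corn oil controls. Aen, an exonuclease of p53-driven apoptosis, had signals of 6.48, 7.06 and 6.63 against 5.90, 6.03 and 5.75 and rose by 0.66 ± 0.146 (limma, adjusted p 0.000482). Its 3 probe sets disagreed, with changes from -0.41 to 0.66. Zmat3, an RNA-binding target, had 5.79, 6.04 and 5.71 against 4.99, 5.15 and 4.98 and rose by 0.63 ± 0.147, cyclin G1 (Ccng1) rose by 0.63 ± 0.155 on 3 of 3 probe sets, and the repair factor Xpc rose by 0.45 ± 0.118. The sixth was Trp53inp1 (0.57 ± 0.16), a stress gene called on 1 of its 2 probe sets. Btg2, an antiproliferative gene chosen here after its values were seen like Cdkn1a, Mdm2 and Trp53inp1, had 8.86, 8.93 and 8.86 against 7.57, 7.67 and 7.52 and rose by 1.12 ± 0.265. Cdkn1a, which encodes the cell cycle inhibitor p21, had 7.99, 8.46 and 8.48 against 6.28, 8.26 and 6.90, with control 28 inside the treated range, and was not called (0.99 ± 0.53, adjusted p 0.0869). Mdm2, the p53 ubiquitin ligase, changed by 0.21 ± 0.117 and was called only on the deposited scale.

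Cell cycle genes did not rise. Of 29 listed, 10 were below the signal filter, and of 18 tested none rose and 2 fell, against 8.7% and 7.21% of all genes. Ccnd1, cyclin D1, had signals of 7.45, 7.32 and 7.27 in treated animals 2, 4 and 5 and 8.34, 9.19 and 8.75 in controls 27, 28 and 29, without overlap, and fell by 1.59 ± 0.217 on 3 of 3 probe sets (limma, adjusted p 0.000182). Ccne1, cyclin E1, had 5.19, 5.11 and 5.33 against 6.12, 5.77 and 6.21 and fell by 1.00 ± 0.123. Of 18 DNA repair genes 2 rose, Xpc and the mismatch repair gene Msh6 (0.62 ± 0.134), a share near that of all genes. Of 19 fetal and tumour-associated liver genes 2 rose, also near the share of all genes, and 3 fell. Those that rose were the desaturase Scd2, with 5.39, 6.23 and 6.17 against 3.92, 3.95 and 3.63 under the floor and a rise of at least 1.42 (adjusted p 5.68e-07), and galectin-1 (Lgals1), with 8.66, 9.30 and 9.08 against 7.81, 8.02 and 7.29 and a rise of 1.13 ± 0.218. Scd2 was dim in the other groups, so the signal filter limits its place in the count as it does for Cyp1a1. The falls were in Tspan8, by at least 0.37, and in Tff3 and Epcam, by 0.55 and 0.60, and all 3 were lost without animal 4 and against the corn oil controls. Gpx6, a glutathione peroxidase gene chosen after its values were seen, had 6.75, 6.32 and 5.76 against 4.29, 4.14 and 3.91 and rose by at least 1.77.

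Genes for uptake and storage of fat stood out in lipid metabolism. Of 20 tested, 5 rose and none fell under 3 scalings, although the median was -0.0372. Cd36, the fatty acid translocase, had signals of 9.77, 9.90 and 10.16 against 7.57, 6.49 and 6.07 and rose by 3.06 ± 0.306 on 3 of 3 probe sets (limma, adjusted p 1.47e-06). Lpl, lipoprotein lipase, had 9.99, 9.53 and 9.46 against 7.06, 7.91 and 6.34 and rose by 2.38 ± 0.307 on 2 of 2 probe sets. The controls spread over more than 1 unit in both genes and still lay below every treated liver. Fitm1, a protein of lipid droplet formation, had 7.80, 7.95 and 8.23 against 5.99, 6.05 and 6.21 and rose by 1.74 ± 0.159, and its relative Fitm2 rose by 0.65 ± 0.144. Pparg, the nuclear receptor of fat storage, had 7.03, 6.73 and 7.32 against 5.56, 5.41 and 5.14 and rose by 1.48 ± 0.181 (adjusted p 8.6e-06). Plin2, a lipid droplet coat protein, had 11.84, 11.86 and 11.88 against 12.09, 12.48 and 11.76 and was not called, as was Fabp4 (-0.33). Of 2 tested adipocyte markers Retn fell (-0.66 ± 0.15), with dim, overlapping signals of 4.82, 4.67 and 4.62 against 4.77, 5.35 and 5.45. Its fall under 3 scalings was lost without animal 4, without control 29 and against the corn oil controls. The summed adipocyte markers were 6.55 to 6.64 in treated and 6.56 to 7.49 in control livers. Of 29 PPAR-alpha targets and genes of fatty acid oxidation 2 rose, Vnn1 (1.21 ± 0.309) and Eci1 (0.33 ± 0.102). This share is near the 8.7% of all genes that rose.

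Cholesterol synthesis genes depended on the control. Of 20 tested, 8 rose and none fell against feed controls, with a median of 0.426. Sqle, squalene epoxidase, had 8.72, 8.49 and 8.82 against 7.27, 6.99 and 7.51 and rose by 1.25 ± 0.216, and Cyp51 had 8.94, 8.98 and 8.78 against 7.84, 7.78 and 7.85 and rose by 0.90 ± 0.156. The others were Pmvk, Dhcr7, Nsdhl, Lss, Idi1 and Fdft1, enzymes of the same pathway, with rises from 0.50 to 0.85. Against the corn oil controls none rose and 1 fell, and corn oil against feed control livers had a list median of 0.66. Among apolipoproteins and assembly factors, 2 of 15 rose and 2 fell. Pltp, which transfers phospholipid between lipoproteins, rose by 1.01 ± 0.145 and Apoc2, the cofactor of lipoprotein lipase, by 0.48 ± 0.0949, whereas Apoa4 had 10.01, 10.16 and 9.74 against 11.01, 10.86 and 10.56 and fell by 1.02 ± 0.148. Apob, the structural protein of very low density lipoprotein, had 12.86, 12.20 and 12.85 against 13.01, 13.16 and 12.91, with animal 4 lowest, and fell by 0.56 ± 0.125.

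Of 19 genes of iron and heme handling 5 rose, among them Fth1 and the biliverdin reductase Blvrb (0.82 ± 0.115), both NRF2 targets, and Urod of heme synthesis (0.33 ± 0.0898). The transferrin receptor Tfrc, chosen after its values were seen, had 7.92, 7.92 and 8.04 against 6.41, 5.96 and 6.57 and rose by 1.48 ± 0.328 on 1 of 2 probe sets, the other at -0.10. Hfe, a regulator of iron sensing, rose by 0.66 ± 0.102 on 2 of 2. Of 13 thyroid hormone genes 2 fell: Dio1, the deiodinase that makes active thyroid hormone, had 8.42, 8.46 and 8.62 against 9.76, 10.04 and 9.08 and fell by 1.30 ± 0.188 (limma, adjusted p 0.000345), and Gpd2 fell by 0.77 ± 0.149 on 1 of 4 probe sets. Of 7 tubulin genes 5 rose. Tubb4b had 10.15, 10.21 and 10.14 against 8.80, 8.96 and 8.80, very tight in both groups, and rose by 1.14 ± 0.135 on 1 of 2 probe sets, and Tubb2a, Tubb5 and Tuba4a rose by 0.86, 0.49 and 0.48. Tuba8, with controls under the floor, rose by at least 0.21. Tubulins are close copies and without animal 4 only 2 rose. Of 31 proteasome subunits 4 rose, Psmc4, Psmd14, Psmd11 and Psmb5, by 0.33 to 0.49, with 1 left without animal 4 and 1 without control 29. This share is near the 8.7% of all genes.

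Of 29 tested plasma proteins of complement and coagulation, 13 fell and none rose, against 7.21% of all genes that fell, and the median was -0.374, with a range from -1.04 to -0.06. Without animal 4 the count was 7 (against 4.91% of all genes), without control 29 it was 19 (against 5.82%), and against corn oil controls it was 9. The largest changes were in the membrane attack complex. C6 had signals of 6.44, 6.15 and 6.36 against 7.09, 7.70 and 6.77 and fell by 1.04 ± 0.189 (limma, adjusted p 0.00225). Hc, which encodes complement C5, had 11.64, 11.35 and 11.51 against 11.97, 12.41 and 11.95, without overlap, and fell by 0.79 ± 0.122 (adjusted p 0.00125). C8a, C8b and C9, named after their values were seen, fell by 0.98 ± 0.287, 0.98 ± 0.254 and 0.78 ± 0.197, and control 28 was highest in all 5 genes. Factor B (Cfb) fell by 0.54 ± 0.0833, and coagulation factors XII (F12) and IX (F9) fell by 0.53 ± 0.0842 and 0.48 ± 0.0803.

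**Figure D2:**
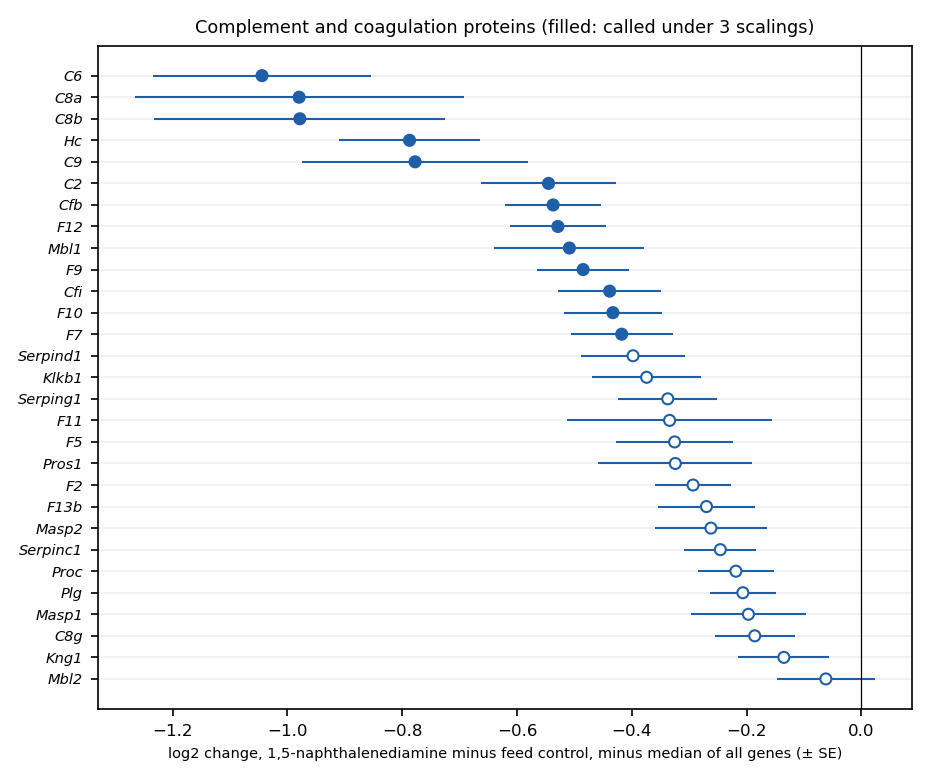
Log2 change of each of the 29 tested complement and coagulation genes between 1,5-naphthalenediamine and feed control livers, minus the median of all genes, with SE bars. Filled points fell under 3 scalings, and C6, C8a, C8b and Hc lie furthest left.

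Other secreted and immune genes fell in smaller numbers. Of 21 acute phase genes 3 fell, Itih3 and Itih4, heavy chains of the hyaluronan-binding inter-alpha-inhibitor (-0.86 ± 0.166 and -0.54 ± 0.0953), and Lbp, which binds bacterial lipopolysaccharide (-0.61 ± 0.134). Of 19 interferon response genes 5 fell. Cxcl9, an interferon-induced chemokine, had signals of 6.60, 6.25 and 6.26 in treated animals 2, 4 and 5 and 7.56, 7.49 and 7.56 in controls 27, 28 and 29, without overlap, and fell by 1.34 ± 0.164 on 2 of 2 probe sets (limma, adjusted p 9.22e-05). Oas1a fell by 0.80 ± 0.161, and Oas2, Gbp3 and Ifit3 by 0.78, 0.73 and 0.68. Of 14 antigen presentation genes 2 fell, B2m (-0.37 ± 0.0699) and the class I gene H2-K1, by 0.45 ± 0.0701 on 4 of 4 probe sets.

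Of 16 Kupffer cell and macrophage markers 4 fell and none rose, against 7.21% of all genes that fell, with a median of -0.54. The count was 2 without animal 4, 7 without control 29 and 10 against the corn oil controls. The protease Ctss (-0.81 ± 0.168), the folate receptor Folr2 (-0.77 ± 0.173), the complement receptor Vsig4 (-0.76 ± 0.198) and the growth factor receptor Csf1r (-0.58 ± 0.145) fell, whereas Clec4f, the marker most restricted to Kupffer cells, had 8.66, 8.53 and 8.31 against 8.73, 8.96 and 8.58 and was not called. Their summed signal was 11.68 to 12.28 in treated and 12.02 to 12.67 in control livers. Summed markers of sinusoidal endothelium (11.48 to 11.78 against 11.56 to 12.04) and stellate cells (11.69 to 11.90 against 11.65 to 12.03) overlapped, and those of T and NK cells (6 of 12 tested, 7.47 to 7.53 against 7.70 to 7.83) did not. The tested T and NK markers were dim, with a median control mean of 4.95, and 1 was under the floor in both groups. Genes up to 5 had a median change of -0.11, so this gap is not read as fewer T and NK cells. The part of these cells in the falls of Cxcl9 and the other immune genes was not tested.

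**Figure D3:**
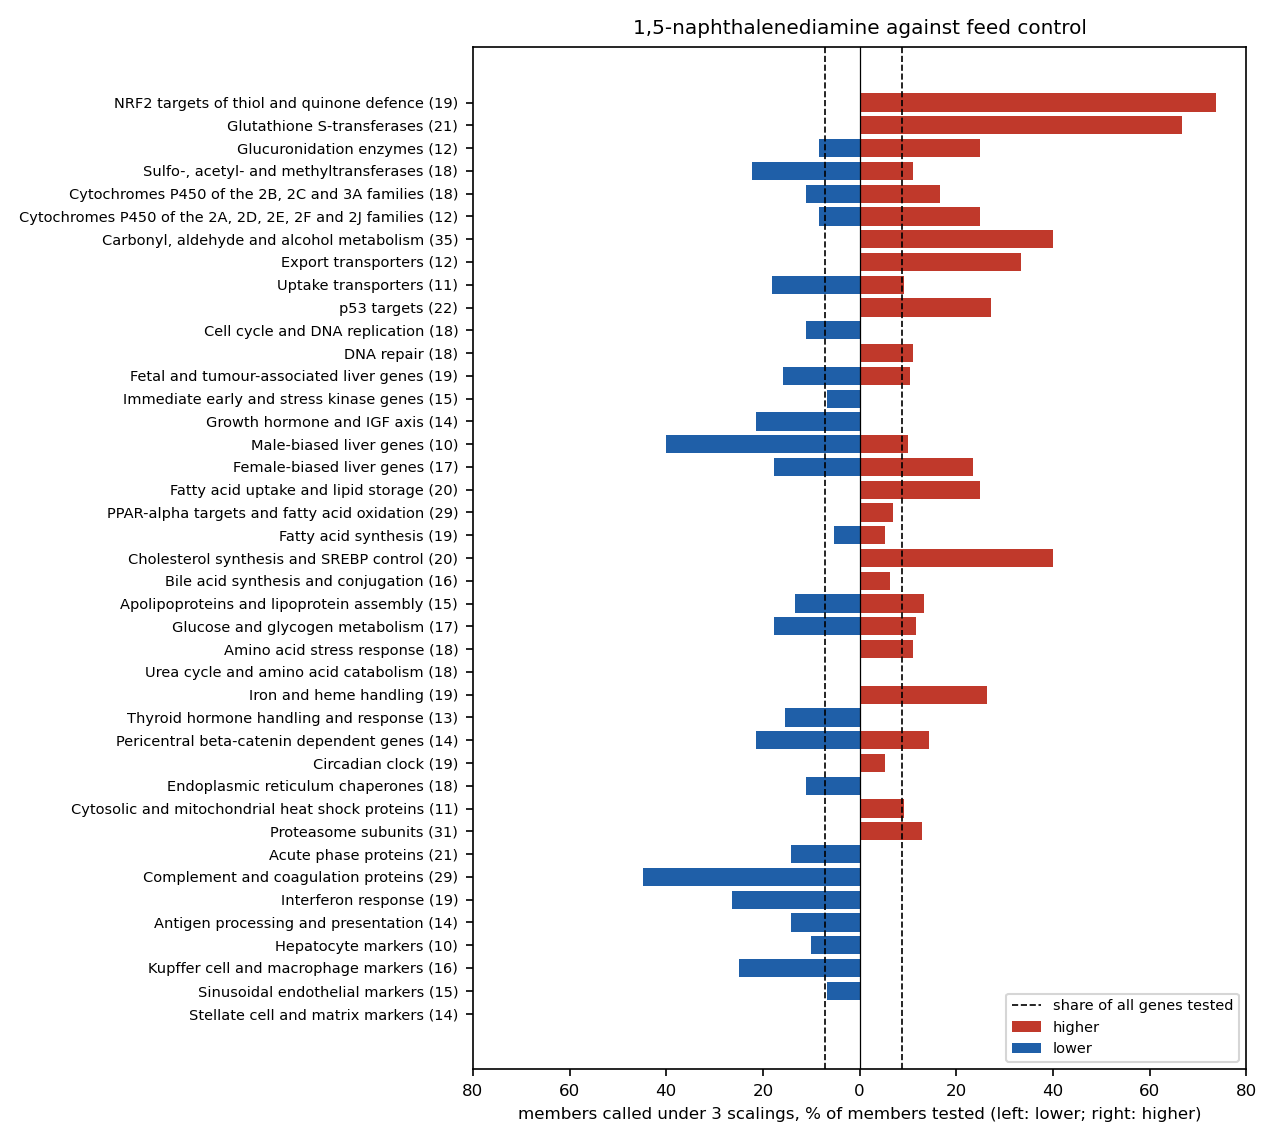
Share of tested members of each gene list with at least 10 tested (number tested in brackets) that rose (right, red) or fell (left, blue) under 3 scalings in 1,5-naphthalenediamine against feed control livers. Dashed lines mark the shares of all genes, 8.7% and 7.21%, and the longest bars are those of the NRF2 targets, the glutathione S-transferases and, to the left, complement and coagulation.

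Which changes set 1,5-naphthalenediamine apart from the other feed chemicals was tested against the mean of the N-(1-naphthyl)ethylenediamine and pentachloronitrobenzene livers, which uses no control array. In this contrast 417 genes were higher (3.43%) and 245 lower (2.01%), and 345 (2.84%) and 236 (1.94%) under 3 scalings. The median change was 0.02. Of the NRF2 targets 13 of 19 were higher, of the glutathione S-transferases 10 of 21, and of complement and coagulation genes 16 of 29 were lower. Cyp1a1 was higher (limma, adjusted p 7.24e-07), with both other groups under the floor. Abcc4 was higher by 2.33, Ugdh by 1.74, Aox1 by 1.56, Gstm2 by 1.48 and Lpl by 1.93. Lower were Slc22a7 (-1.36 ± 0.195), Ccnd1 (-1.32 ± 0.188), Dio1 (-1.15), Cxcl9 (-1.16) and Hc (-0.75). Cdkn1a, not called against controls, was higher by 1.93 ± 0.459 (adjusted p 0.0168). In 19 interferon genes 13 were lower, where the pentachloronitrobenzene livers had a list median of 0.99 above feed control.

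Several large changes against control did not pass in this contrast. Cyp1a2 differed by 0.34 (adjusted p 0.0699) and Slco1a1 by -1.71 (adjusted p 0.062). Against the shared feed controls, Slco1a1 changed by -4.29, -3.15 and -1.98 under 1,5-naphthalenediamine, N-(1-naphthyl)ethylenediamine and pentachloronitrobenzene, and Cyp1a2 by 1.39, 1.26 and 0.86. Csdc2 changed by -2.18, -2.25 and -1.89. The 20 cholesterol synthesis genes had a median difference of 0.09, but the 2 other feed chemicals were unlike in this list. Against feed control its median was -0.03 under N-(1-naphthyl)ethylenediamine and 0.68 under pentachloronitrobenzene. Compared with N-(1-naphthyl)ethylenediamine alone, the median difference was 0.47 and 5 of the 20 genes were higher under 3 scalings, against 3.08% of all genes.

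N-(1-naphthyl)ethylenediamine is the nearest relative in structure. It carries an ethylenediamine chain on a single ring of naphthalene, where 1,5-naphthalenediamine carries an amino group on each ring, and both were fed at 2000 ppm, which is by weight and so not an equal molar dose. This was the only pair of compounds compared for structure, and the adjustment is over all genes. Directly compared, 427 genes (3.51%) were higher and 239 (1.96%) lower with 1,5-naphthalenediamine, and 375 (3.08%) and 234 (1.92%) under 3 scalings. RNA integrity was 7.7 to 8.1 in the N-(1-naphthyl)ethylenediamine group and 8.8 to 8.9 in the treated group, and with it as a covariate 93 genes were called. The 18S signal was 10.35, 11.56 and 6.96 in animals 12, 14 and 15, against 6.47, 9.97 and 5.94 in treated animals 2, 4 and 5. The beta-actin 3' signal exceeded the 5' signal by 1.45 to 1.85, against 0.88 to 1.75 in the treated group and 0.90 to 0.99 in feed controls. Without the 5 arrays of highest 18S signal, which leaves 1 N-(1-naphthyl)ethylenediamine array that is assumed to vary like the others, 99 genes were called. The part of these measures in the differences was not tested. Cyp1a1 signals were 3.69, 3.91 and 4.16 in N-(1-naphthyl)ethylenediamine animals 12, 14 and 15, all under the floor, and the difference was at least 2.69 (limma, adjusted p 3.96e-06). Ugdh had 9.76, 9.36 and 9.74 and differed by 2.13 ± 0.143 (95% interval 1.83 to 2.43), and Aox1 had 8.55, 8.36 and 8.41 and differed by 2.17 ± 0.128 (1.91 to 2.44). Gstm2 differed by 1.72 ± 0.105 (1.50 to 1.94), and Gclc by 1.39 ± 0.196 (0.98 to 1.80). Scd2, also under the floor in these animals, differed by at least 1.63. These 6 genes were called with the covariate too. Tubb2a differed by 2.45 ± 0.276, with signals of 9.09, 8.66 and 8.81, below those of the feed controls.

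Calls of lower genes in this pair were less firm. Slc22a7 differed by -1.41 ± 0.225, Ccnd1 by -1.27 ± 0.217 and Hc by -0.77 ± 0.122, and with RNA integrity as a covariate their adjusted p were 0.0627, 0.107 and 0.0669. For some genes no difference was called. Cyp1a2 had 13.40, 13.34 and 13.43 in animals 12, 14 and 15 and differed by 0.15 ± 0.126 (-0.11 to 0.42), Slco1a1 by -1.11 ± 0.59 (-2.35 to 0.13), Serpina12 by 0.65 ± 0.377 (-0.14 to 1.44) and Cyp2b10 by 0.57 ± 0.365 (-0.20 to 1.34). The interval of Slco1a1 allows a difference of more than 1 on the log2 scale, and Hsd3b5 was under the floor in both groups.

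**Figure D4:**
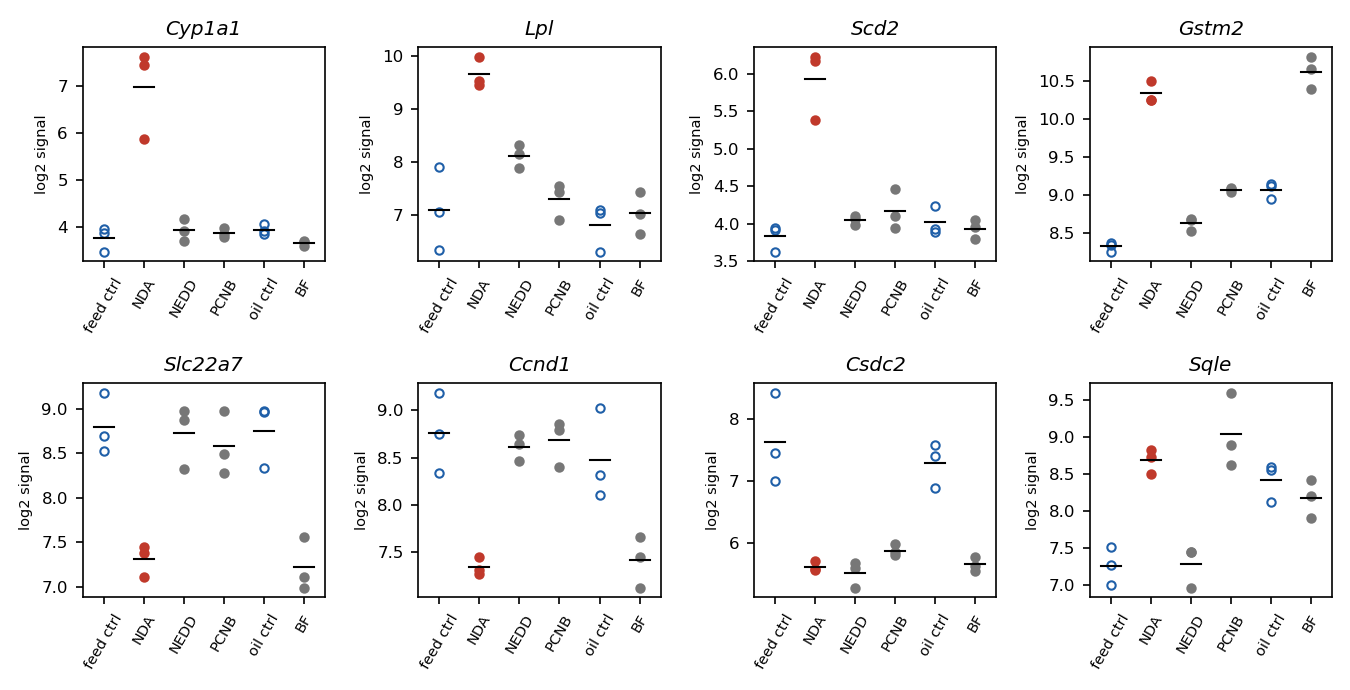
Log2 signal of 8 genes in each of the 18 livers by group, with 1 point per animal and a bar at the group mean: feed control, 1,5-naphthalenediamine (NDA, red), N-(1-naphthyl)ethylenediamine (NEDD), pentachloronitrobenzene (PCNB), corn oil control and 2,3-benzofuran (BF). Cyp1a1 and Scd2 are high in NDA and near 4 in the other groups, Gstm2, Slc22a7 and Ccnd1 are shifted in NDA and BF alike, Csdc2 is low under all 4 chemicals, and Sqle is lower in feed than in corn oil controls.

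The other chemical classed as a positive liver carcinogen, 2,3-benzofuran, was compared by its own control, as the difference between both effects. At an adjusted p under 0.05, 73 genes (0.6%) had a higher and 44 (0.362%) a lower effect of 1,5-naphthalenediamine, and 55 (0.452%) and 44 (0.362%) under 3 scalings. Dose, route and vehicle differ between these groups. Cyp1a1 and Scd2 had called differences (limma, adjusted p 0.000143 and 0.000143), and both were under the floor in the 2,3-benzofuran and corn oil groups, so no size is given. Cyp1a2 changed by 1.39 under 1,5-naphthalenediamine and 0.01 under 2,3-benzofuran (difference 1.42 ± 0.179). Lpl changed by 2.38 and 0.11, also a called difference. Apoa4 changed by -1.02 and 1.42 and Dio1 by -1.30 and 0.55, in opposite directions. Of the 19 NRF2 targets, the difference was called for 1, Cbr3, which was under the floor in both control groups, with the higher mean under 2,3-benzofuran. Ugdh changed by 2.19 and 2.17, Gsta2 by 3.23 and 3.25, and Ccnd1 by -1.59 and -1.17, and no difference was called for these. Complement and coagulation genes had medians of -0.374 and -0.37 under these chemicals. The NRF2 targets had medians of 0.825 and 0.93, and the glutathione S-transferases 0.845 and 0.24. The median difference between the effects was -0.43 for the NRF2 targets and 0.21 for the transferases. Of the 21 tested transferases, 1 had a called higher and 1 a called lower effect of 1,5-naphthalenediamine.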

How the data were processed

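Liver RNA of single mice was hybridized to Affymetrix whole-genome mouse arrays after Trizol and RNeasy isolation, with 10 ug labelled with biotin, per the labels' protocols. The authors deposited log2 signals per probe set; how these were background corrected, normalized and summarised is not stated in the sources used here, and the log2 scale was checked from the range of the values. Of 45101 probe sets, 64 are controls, 34945 carry 1 gene in the platform annotation, 932 several and 9160 none, and symbols were updated through Entrez identifiers. Probe sets above their array's median in at least 3 of the 18 arrays and with 1 gene numbered 20712, and the one with the highest mean stood for each of 12169 genes.

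Group means over all 18 arrays were fitted with limma 3.58.1 in R 4.3.3 (lmFit, eBayes with trend, 12 residual degrees of freedom), and a gene was called where its p, adjusted by Benjamini-Hochberg over all genes, was under 0.05. On simulated data the fit recovered 97% of genes changed by 1 and 99% of those changed by 2 (log2). Calls were repeated after quantile normalization and after centring on the median of tested genes. Group means below the lowest median of any array, 4.25, were not taken as measured. Changes against such a group are bounds, with each of its arrays at its own median or, if higher, its own signal. The number of arrays limits the precision, and no read depth applies.

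Named genes are the 12 largest rises and the 12 largest falls called under 3 scalings without overlap of the arrays, plus the 4 members of each list with the largest t statistic. There were 53 lists with 944 entries, 781 of them tested. The comparison, lists and genes were chosen with earlier results of these data known, and genes named beyond the rule, as the few that changed in a list or as known members that did not, were chosen after their values were seen. Promoter windows and their coordinates come from RefSeq (GRCm38.p6), found by symbol for 9805 tested genes. Alternatives covered normalization, filters, probe sets, weights, covariates, thresholds, the control group and leaving out each array. Python 3.11.15 with matplotlib 3.10.9 was used for figures.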

Additional observations from a re-analysis of the deposited data

Results flagged for a closer look

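Among 202 named genes, 19 had an effect of 1,5-naphthalenediamine that differed from that of 2,3-benzofuran, each measured against its own control. The call was by the limma contrast of both effects (adjusted p under 0.05 under 3 scalings). Over all genes tested, 0.452% had a higher and 0.362% a lower effect by this rule. Named genes were chosen for their changes under 1,5-naphthalenediamine, so a larger share among them is built in and is not a result. Of these, 13 had the higher effect under 1,5-naphthalenediamine and 6 the lower. Route, vehicle and dose differ between the groups, and what they add to the differences was not tested.

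The largest positive differences on the log2 scale were those of Cyp1a1 (3.48), Lpl (2.31) and Scd2 (2.16). Cyp1a1 and Scd2 were under the floor in the 2,3-benzofuran group and in both control groups, so their values are fitted and not measured sizes. The cholesterol synthesis genes Sqle (1.64), Pmvk (1.22), Cyp51 (1.13) and Nsdhl (1.10) also differed. In these 4 genes the corn oil controls of 2,3-benzofuran were higher than the feed controls. The magnesium transporter relative Nipal1 (1.53), the phospholipid transfer protein gene Pltp (1.50), Cyp2b13 (1.48), Cyp1a2 (1.42), the carboxylesterase Ces2e (1.09) and the stress factor Ddit3 (0.644) complete this side.

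Negative differences among the named genes were those of the small heat shock protein Hspb1 (-2.89), Apoa4 (-2.40), Dio1 (-1.81), Cyp2d9 (-1.49) and the endoplasmic reticulum proteins Dnajc3 (-1.15) and Pdia6 (-0.927). Genes outside the named set differed too, such as the male-biased Cyp4a12a (-4.19) and Elovl3 (-2.76). Cyp4a12a was under the floor in the 1,5-naphthalenediamine group and both control groups, so its value is fitted and not a measured size. Apoa4, Dio1, Dnajc3 and Pdia6 fell under 1,5-naphthalenediamine and were higher under 2,3-benzofuran, whereas Hspb1 changed by 0.27 and 3.20. The falls of Dnajc3 and Pdia6 were lost without animal 4 and against the corn oil controls, and their treated and feed control signals overlapped.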

How the results depend on the processing

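Against feed control 4859 genes were called on the deposited scale. The count was 2962 after quantile normalization, 2752 with only the compared arrays, 2772 without the 5 arrays of highest 18S signal, 2587 at an adjusted p under 0.01, 176 with a change beyond 1 as well, and 3176 with corn oil controls. Leaving out 1 array gave 3306 (without control 29) to 4970. For the mean of the other feed chemicals (662 genes) RNA integrity as a covariate gave 303, the 18S setting 161 and the stricter p 272, with 286 (without treated animal 5) to 624 on leaving out 1 array and 333 without treated animal 4. In the contrast with N-(1-naphthyl)ethylenediamine (666 genes) the same 3 settings gave 93, 99 and 241. On leaving out 1 array the range was 313 (without treated animal 5) to 550, with 359 and 349 without its own animals 14 and 15 and 425 without treated animal 2. For 2,3-benzofuran (117 genes) they gave 42, 18 and 32, array weights 198 and the beta-actin signal 72. On leaving out 1 array the range was 43 (without corn oil control 25) to 153, with 50 without corn oil control 24, 53 without feed control 28, 58 and 70 without treated animals 4 and 5, and 48 without benzofuran animal 6. The cause of these changes was not tested.

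Of 167 named genes called against feed control, 89 kept their call in every setting, 134 without each of the 6 arrays and 143 after quantile normalization. The sign turned for Apoa2 alone, whose change of 0.04 became -0.01716 without feed control 28 and had a range up to 0.08866. Signal over background limits dim genes. No paired analysis was possible because the groups share no animal numbers. Settings with left-out animals for lists, and the corn oil control for lists, were added after the data had been seen.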
